A study of Mus musculus with 15 samples.

Results

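The ON F2 group held livers of adult male offspring fathered by ON males, which are mice overfed while they were suckling. It was read on 3 of the 15 arrays of the series, pools 13, 14 and 15, chosen because their titles name offspring from ON mice, and it was set against the 3 control pools 1, 2 and 3. RNA of whole liver was read on Affymetrix mouse expression arrays, whose probe sets are groups of short probes for 1 transcript, and the study asked whether expression patterns of perinatally challenged males are found again in their sons. Control pools held livers of control male mice and, by their titles, drew on offspring of both generations together, so the sons had no control of their own generation alone. Used beside these were the ON F1 pools 7, 8 and 9 (adult males overfed during lactation themselves) and the IUGR F2 pools 10, 11 and 12 (adult male offspring of males exposed to 50% caloric restriction in utero). The number 3 in each title is read here as 3 livers a pool, so an array averages over animals and the spread between single mice is unknown. Strain, age, litter, the hour of death and the feeding state at death are not given in the sources used here, nor is which ON F1 males fathered which sons. All values below are log2 levels, differences are log2 and run ON F2 minus the group it is set against, and errors are standard errors of the limma fit with 3 pools in each group.

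The liver takes up sugar and fat after a meal, makes fatty acids, cholesterol and plasma proteins, and burns fat when food is short. Overfeeding of suckling rodents, usually done by rearing small litters, is known to raise later body weight and liver fat in the animals themselves. Liver RNA also holds transcripts of macrophages, endothelium, stellate cells, bile ducts and blood, and in such bulk samples fewer cells of a type and less RNA per cell cannot be told apart. Hepatocyte markers were present at control levels in the ON F2 pools: of 10 measured hepatocyte markers the median difference from control was 0.01 (-0.02 after the centring described below), and albumin (Alb) stood at 14.4 in each of the 6 pools. Only Tat, the liver enzyme of tyrosine breakdown, had an unadjusted p under 0.05 among them, at -0.28 ± 0.12. Correlations between the 6 arrays lay between 0.988 and 0.994 across all genes, and no pair of arrays was identical. Actin probe sets at the 3' end exceeded those at the 5' end, a measure of how intact the RNA is, by 1.95, 2.06 and 2.10 in ON F2 pools and 1.94, 1.91 and 1.76 in control pools, and this measure was tried as a covariate.

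No gene passed the test between ON F2 and control livers. Of 18193 genes, 0 were called higher and 0 lower at an adjusted p under 0.05 (0% each way), and the smallest adjusted p was 0.0819. At an unadjusted p under 0.05, 1071 genes (5.89%) were higher and 1684 (9.26%) were lower in ON F2. All 3 ON F2 pools lay above the range of the control pools for 1629 genes (8.95%) and below it for 2195 genes (12.1%). After the centring by level described below, 1068 genes (5.87%) were higher and 1045 (5.74%) lower at an unadjusted p under 0.05. These percentages are the background against which counts of named groups are read here. With 3 pools against 3, an exact permutation test of a single gene cannot give a p below 0.1.

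The excess of lower genes went with the level of the gene. Among 7830 genes with a mean level of at most 5, where probe sets are dim, the median difference was 0.05 and 34.7% of genes were lower in ON F2. Among 3667 genes with a level between 7 and 9 the median was -0.09 and 73.5% were lower, and among 1539 genes between 9 and 11 it was -0.07 with 67.3% lower. The shift was present in each ON F2 pool of the middle band, at -0.06, -0.13 and -0.08, while the control pools stood at -0.02, -0.02 and 0.03. Of that band 21.2% of genes were lower at an unadjusted p under 0.05, against 14.6% between 9 and 11 and 3.05% above 11. Most liver enzymes, chaperones and proteasome subunits fall in the bands between 7 and 11, where the typical gene was lower too. The median difference of each list from control is therefore given below as deposited and after each array was centred along the level of its genes. That step was chosen after the data were seen. List medians of single pools, with a pool left out or against ON F1 are as deposited unless centring is named.

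**Figure D1:**
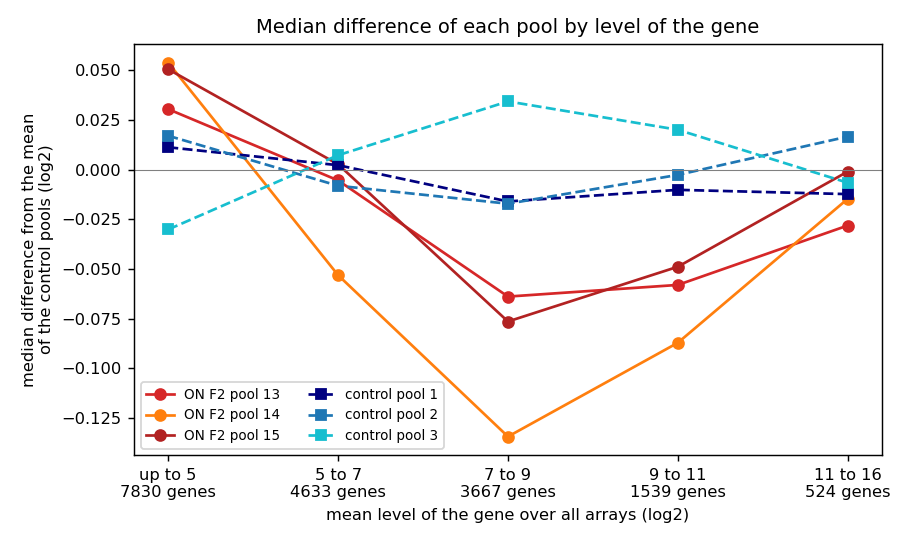
Median difference of each pool from the mean of the control pools (vertical axis, log2) over the genes of 5 bands of mean level (horizontal axis, log2), with ON F2 pools as circles and control pools as squares. In the band from 7 to 9 the ON F2 pools sit at -0.06, -0.13 and -0.08 and the control pools at -0.02, -0.02 and 0.03.

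Steap2 and Mmd2 were among the genes nearest to a call. Steap2, a metal reductase of endosomal membranes, had levels of 5.74, 5.47 and 6.40 in ON F2 pools, against 4.56, 4.42 and 4.12 in control pools. The difference was 1.50 ± 0.24 (limma adjusted p = 0.0819), all 5 of its probe sets pointed the same way, and the lowest ON F2 pool stood 0.91 above the highest control pool. Steap2 lies at chr5:5664829-5694649 (GRCm38.p6). Mmd2, a membrane protein of the progestin and adipoQ receptor family, had levels of 6.79, 6.35 and 6.71 in ON F2 pools and of 5.73, 5.98 and 5.66 in control pools. Its groups did not overlap either, with a difference of 0.83 ± 0.14 (limma adjusted p = 0.0819), though 1 of its 3 probe sets pointed the other way. Mmd2 lies at chr5:142563480-142608936 (GRCm38.p6). The 10 higher genes of smallest p were taken only from genes with all 3 ON F2 pools above the control range. Their lack of overlap was thus fixed by the choice. Others among them were Plch1, a phospholipase C, at 0.77 ± 0.15, and Kcp, a secreted regulator of bone morphogenetic protein signalling, at 0.53 ± 0.11. Ptprm, a receptor tyrosine phosphatase of cell contacts, was at 0.40 ± 0.08. Zkscan5, Rab36, Gm26588, Wnk4 and Il1f10 completed them, with differences between 0.41 and 0.81. For Zkscan5 1 of 2 probe sets and for Rab36 1 of 3 pointed the other way.

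Among the 10 lower genes of smallest p, taken only from genes with all 3 ON F2 pools below the control range, was Tcof1. This gene, which encodes the nucleolar protein treacle that serves ribosomal RNA transcription, had levels of 5.41, 5.47 and 5.46 in ON F2 pools, against 5.98, 5.98 and 5.91 in control pools. The pools of each group lay close together and the groups apart, and the difference was -0.51 ± 0.08 (limma adjusted p = 0.0819). Dnttip2, a nucleolar factor of small-subunit processing, differed by -0.46 ± 0.08, and Eif5b, the initiation factor that joins the ribosomal subunits, by -0.48 ± 0.08. Get3, which carries tail-anchored proteins to the endoplasmic reticulum, had levels of 7.99, 7.84 and 7.76 in ON F2 pools and 8.65, 8.23 and 8.49 in control pools. Its groups did not overlap, and the difference was -0.59 ± 0.11. Nfxl1 (-0.76 ± 0.12), Iqcg (-1.06 ± 0.19), Rala, Baiap2l1, Ints2 and Eapp made up the rest, all with 3 ON F2 pools below the control range as the choice required. Of the 3 probe sets of Nfxl1, and likewise of Rala, 1 pointed the other way. The 23 measured cytosolic ribosomal proteins had a median of -0.05, with 17 lower and 1 of them at an unadjusted p under 0.05. After the centring by level the median was -0.0086, with 15 lower.

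**Figure D2:**
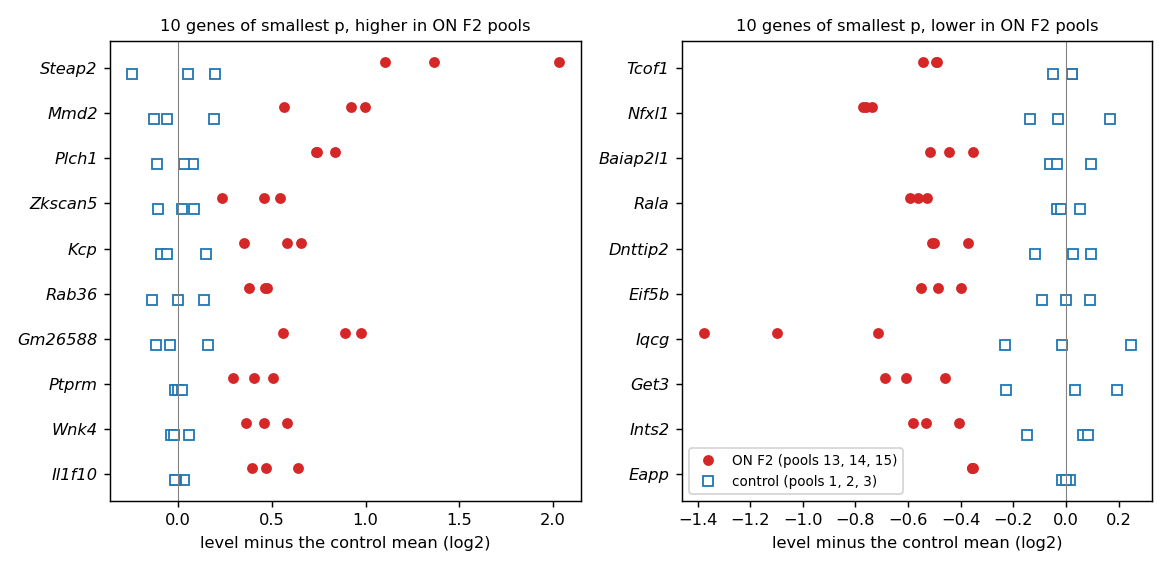
Level minus the control mean (horizontal axis, log2) of the 10 genes of smallest p that were higher in ON F2 (left panel) and the 10 that were lower (right panel), with a filled circle for each ON F2 pool and an open square for each control pool. Only genes whose ON F2 pools all lay outside the control range could enter, so circles and squares do not overlap in any row. Steap2, for example, is at 5.47 or more in ON F2 and 4.56 or less in control pools. None of the 20 genes passed the adjusted threshold.

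Steps of more than 1 log2 in every ON F2 pool from the control mean were rare. Dio1, Hsd17b13, Moxd1 and Steap2 were higher by that much in all 3 pools, and Rec114 was lower. Hsd17b13, a lipid-droplet enzyme that is high in fatty liver, had the largest difference of all genes, with levels of 11.38, 10.15 and 10.43 in ON F2 pools and of 6.56, 9.79 and 6.68 in control pools. All ON F2 pools lay above all control pools, with control pool 2 closer to the lowest ON F2 pool than the ON F2 pools were to each other at their extremes, and the other two control pools far below. The difference was 2.98 ± 1.00 (limma adjusted p = 0.201). Moxd1, a copper monooxygenase-like protein of the endoplasmic reticulum, had levels of 11.37, 11.65 and 11.46 in ON F2 pools, against 9.88, 10.55 and 9.36 in control pools. Ptgds, a prostaglandin synthase and lipid carrier, had levels of 10.01, 8.10 and 9.14 in ON F2 pools and 7.70, 7.29 and 7.96 in control pools, without overlap, at 1.43 ± 0.40 (limma adjusted p = 0.145). These genes were chosen after their values were seen.

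Chaperones and degradation factors of the endoplasmic reticulum were lower in ON F2 livers, in most members by more than the median of their level band, without any of them passing the test. The unfolded protein response raises such genes when client proteins outrun folding capacity, through the sensors Ern1, Atf6 and Perk and the factor Xbp1. Of 24 measured genes of this response 20 were lower in ON F2, with a median of -0.22, and of -0.17 with 18 lower after centring by level. At an unadjusted p under 0.05, 9 of the 24 (37.5%) were lower and 0 higher. Of all genes, 14.6% between 9 and 11 and 21.2% between 7 and 9 were lower at that threshold. After centring 6 were lower, beside 6.04% and 6.84% of the genes in these bands. The list median differed between the ON F2 pools, at -0.02 in pool 13, -0.19 in pool 14 and -0.39 in pool 15, against -0.02, -0.05 and 0.06 in control pools. Pool 13 thus lay inside the control range and the other two below it.

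All 3 ON F2 pools lay below the control range for 8 of the 24 members (33.3%). The share was 22.7% of all genes between 9 and 11 and 26.1% of those between 7 and 9. Dnajb9, the co-chaperone that restrains Ern1, had levels of 10.44, 10.54 and 10.06 in ON F2 pools, against 10.92, 10.94 and 10.89 in control pools. Its groups did not overlap, and the difference was -0.57 ± 0.14 (limma adjusted p = 0.13). Creld2, a secreted disulphide isomerase partner, had levels of 9.88, 9.28 and 8.72 in ON F2 pools and 10.48, 10.04 and 10.34 in control pools, at -0.99 ± 0.39. Hyou1 (-0.61 ± 0.21), Herpud1 (-0.57 ± 0.21), Manf (-0.52 ± 0.20), Dnajc3 (-0.50 ± 0.20) and Syvn1, the ubiquitin ligase of this compartment (-0.57 ± 0.24), likewise had all 3 ON F2 pools below the control range. The abundant chaperones Hspa5 (-0.20 ± 0.16), Hsp90b1 (-0.05 ± 0.11) and Calr (-0.06 ± 0.11) overlapped with control. The factor Xbp1 was at 0.23 ± 0.13 and the sensors Ern1 and Atf6 at 0.20 ± 0.12 and -0.06 ± 0.10 (0.04 after centring for Atf6). The sensor Perk (Eif2ak3), which is no member of the list and was looked up after the others were seen, had levels of 7.35, 7.00 and 7.12 in ON F2 pools, against 7.61, 7.57 and 7.54 in control pools. It lay below the control range in each ON F2 pool, at -0.42 ± 0.11.

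The promoters of several of these genes hold the endoplasmic reticulum stress element, CCAAT and CCACG set 9 bases apart, to which Atf6 with NF-Y is known to bind. It was searched on both strands of the RefSeq promoter windows of GRCm38.p6, which run from 250 bases before to 50 after each gene's start, and 39 of 32851 windows (0.119%) held it. Of the 24 response genes 20 had a window and 9 of those held the element (Calr, Canx, Creld2, Derl3, Dnajc3, Hsp90b1, Hspa5, Pdia6 and Syvn1). Of these 9, 7 were lower in ON F2 and their median was -0.06, so the element was found in members that stood low and in members that did not. A match is a description of these letters only. Shown are 3 of the lowest members and Hspa5, with the element in capitals, each running with its gene.
Creld2, chr15:88819480-88819578, plus strand, element on the opposite strand: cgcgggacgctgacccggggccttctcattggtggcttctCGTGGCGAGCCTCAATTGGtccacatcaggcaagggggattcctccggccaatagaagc
Dnajc3, chr14:118937787-118937885, plus strand: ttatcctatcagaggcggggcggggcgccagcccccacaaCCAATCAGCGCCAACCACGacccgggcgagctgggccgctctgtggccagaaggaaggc
Syvn1, chr19:6046492-6046590, plus strand: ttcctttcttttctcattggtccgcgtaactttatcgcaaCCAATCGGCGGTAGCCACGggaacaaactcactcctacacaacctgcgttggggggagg
Hspa5, chr2:34771985-34772083, plus strand: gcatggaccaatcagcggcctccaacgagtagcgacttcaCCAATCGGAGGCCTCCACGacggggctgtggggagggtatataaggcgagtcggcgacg

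Most proteasome subunits stood lower in ON F2 livers, mostly by small amounts, with differences between -0.62 and 0.02. Of 23 measured subunits 22 were lower in ON F2 with a median of -0.12, and 20 with a median of -0.08 after centring by level. At an unadjusted p under 0.05, 7 were lower as deposited and 3 after centring, and 10 had all ON F2 pools below the control range (43.5% of the list, against 22.7% of genes between 9 and 11). Psmb7, a catalytic subunit, had levels of 8.41, 8.11 and 8.26 in ON F2 pools, against 9.16, 8.63 and 8.85 in control pools. The groups were apart, at -0.62 ± 0.17 (limma adjusted p = 0.134). Psmb2 had levels of 9.06, 9.06 and 9.08 in ON F2 pools and 9.27, 9.28 and 9.33 in control pools, at -0.23 ± 0.07. The median of the list was -0.15, -0.15 and -0.07 in the ON F2 pools and -0.02, -0.05 and 0.04 in the control pools, so all 3 ON F2 pools lay below them. After centring they were -0.10, -0.10 and -0.04 in the ON F2 pools and -0.01, -0.05 and 0.03 in the control pools, and ON F2 pool 15 lay inside the control range. In the cytosol, 13 of 17 heat shock genes were lower with a median of -0.17, and 12 with -0.10 after centring. Bag3, the partner of Hsp70 in chaperone-assisted autophagy, had levels of 8.10, 8.11 and 8.27 in ON F2 pools, against 8.66, 8.66 and 8.71 in control pools, at -0.52 ± 0.11 (limma adjusted p = 0.107). Hspb8, which works with Bag3, differed by -0.34 ± 0.14, while Hsp90aa1 and Hspa8 overlapped with control.

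**Figure D3:**
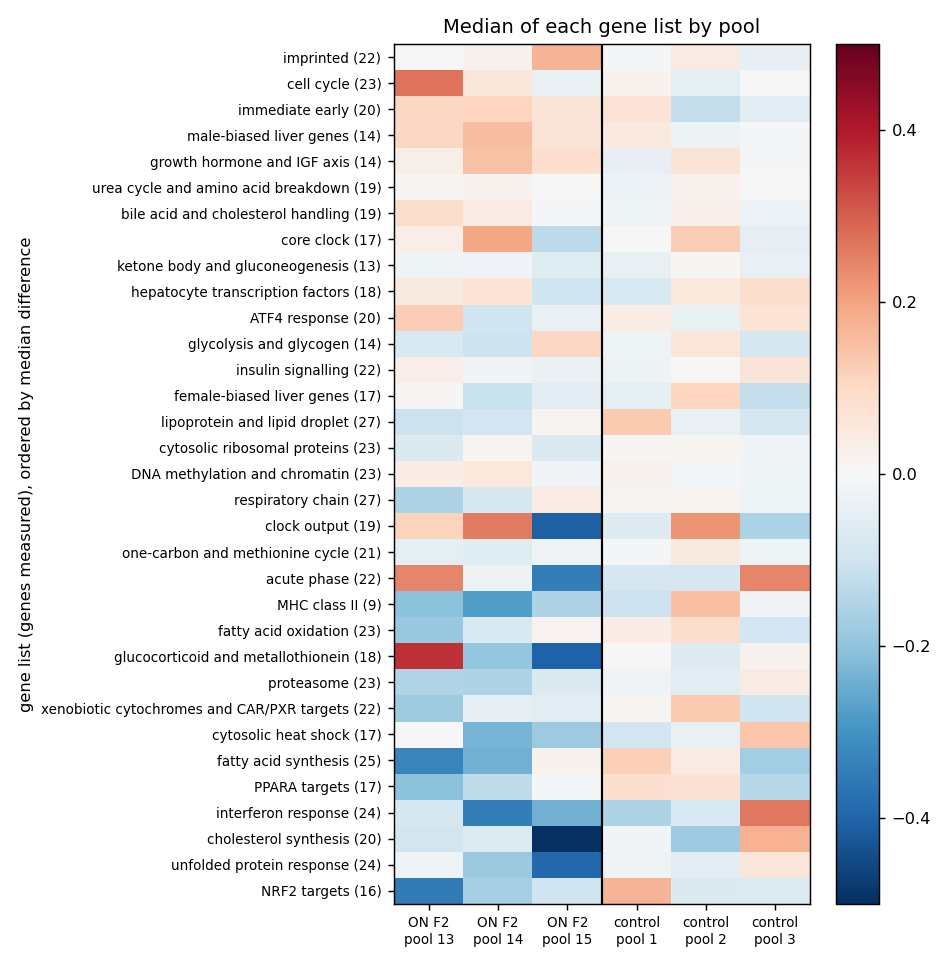
Median level minus the control mean (colour, log2, capped at 0.5 either way) of 33 gene lists (rows, with the number of measured genes) in each pool, ON F2 pools left of the line and control pools right of it. The unfolded protein response list is at -0.02, -0.19 and -0.39 in ON F2 pools 13, 14 and 15 and the proteasome list at -0.15, -0.15 and -0.07, and several other lists differ as much among ON F2 pools as between the groups.

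Genes of cholesterol and fatty acid synthesis were lower in median, with pools that disagreed. Of 20 measured genes of cholesterol synthesis 18 were lower in ON F2, with a median of -0.20 (16 lower and -0.16 after centring). The median was -0.09 and -0.07 in pools 13 and 14 but -0.52 in pool 15, against -0.02, -0.18 and 0.18 in control pools. Mvd, the decarboxylase of the mevalonate pathway, had levels of 7.73, 7.61 and 7.52 in ON F2 pools and 8.41, 7.96 and 8.36 in control pools, without overlap, at -0.62 ± 0.17 (limma adjusted p = 0.148). Lss, lanosterol synthase, differed by -0.51 ± 0.21 and Srebf2, the regulator of the pathway, by -0.26 ± 0.11, also without overlap. Of 25 genes of fatty acid synthesis 21 were lower, with a median of -0.20 (20 and -0.15 after centring), and here pool 15 was the one like control, at 0.02 beside -0.33 and -0.24. Fasn, fatty acid synthase, had levels of 11.06, 11.57 and 11.80 in ON F2 pools, against 12.25, 11.90 and 11.60 in control pools. These overlapped, at -0.44 ± 0.31. Only Scd2 and Slc25a1, the mitochondrial citrate carrier, had an unadjusted p under 0.05 in this list, which is 8.0% of it. Of all genes between 9 and 11, where the median level of the list lies, 14.6% were lower at that threshold. After centring 1 gene of the list was lower at it, beside 6.04% of that band. Scd2 overlapped with control, and 1 of its 3 probe sets pointed the other way.

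Most fasting and fat-burning genes stood somewhat lower in ON F2 livers. PPARA is the nuclear receptor that turns on fat oxidation and ketone making in the fasted liver. Of 17 measured targets 12 were lower in ON F2 with a median of -0.20 (11 and -0.17 after centring). At an unadjusted p under 0.05, 4 of the 17 (23.5%) were lower and 1 higher, and 4 and 0 after centring. Of all genes between 5 and 7, where the median level of the list lies, 11.4% were lower at that threshold, and 8.42% after centring. The list median was -0.20, -0.13 and -0.01 in ON F2 pools and 0.08, 0.07 and -0.14 in control pools, which overlapped, and the median difference was -0.089 without control pool 2. Fgf21, a hormone released by the fasted or stressed liver, had levels of 4.55, 5.35 and 5.32 in ON F2 pools, against 6.23, 6.24 and 5.52 in control pools. The groups were apart, by little at pool 3, at -0.92 ± 0.28 (limma adjusted p = 0.166). Pdk4, the kinase that holds back sugar oxidation, had levels of 4.30, 4.30 and 6.06 in ON F2 pools and 7.98, 6.14 and 5.58 in control pools. ON F2 pool 15 lay among the control pools, and the difference was -1.68 ± 0.60. Of 23 enzymes of fatty acid oxidation 21 were lower by small amounts, with a median of -0.10 (16 and -0.07 after centring). At an unadjusted p under 0.05, 2 of them (8.70%) were lower, beside 14.6% of all genes between 9 and 11. After centring 1 was, beside 6.04%. Hadha, the long-chain subunit of the trifunctional protein, was the one of smallest p at -0.28 ± 0.09.

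Coat and lipase-brake proteins of lipid droplets also stood lower, although Hsd17b13 of the same organelle stood higher. G0s2, which inhibits adipose triglyceride lipase, had levels of 8.65, 8.52 and 9.18 in ON F2 pools, against 9.76, 9.70 and 9.21 in control pools. ON F2 pool 15 and control pool 3 differed by 0.03 only, and the group difference was -0.77 ± 0.27. Plin5 (-0.38 ± 0.14), Plin2 (-0.26 ± 0.12) and Pparg (-0.62 ± 0.22) had an unadjusted p under 0.05 with overlapping pools. Pltp, the phospholipid transfer protein, had levels of 7.47, 7.95 and 8.84 in ON F2 pools and 10.55, 9.89 and 8.12 in control pools, which overlapped, at -1.43 ± 0.54. Over the 27 measured genes of lipoproteins and lipid droplets 16 were lower, with a median of -0.05 (18 and -0.08 after centring). In cholesterol export to bile, Abcg8, a subunit of the sterol pump, had levels of 8.12, 8.29 and 8.07 in ON F2 pools, against 7.67, 8.06 and 7.59 in control pools. It lay just above the control range, at 0.39 ± 0.13 (limma adjusted p = 0.193), while Cyp7a1, the rate-limiting enzyme of bile acid synthesis, was at 0.02 ± 0.22.

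Genes of oxidative defence were lower in most members, and genes of drug handling, as deposited, no more often than all genes of their level. NRF2, encoded by Nfe2l2, raises glutathione and quinone-reducing enzymes once it is freed from Keap1. Of 16 measured genes of this set 15 were lower in ON F2, with a median of -0.23 (12 and -0.17 after centring). At an unadjusted p under 0.05, 4 (25%) were lower, and 3 after centring. The share was 14.6% of all genes between 9 and 11, and 6.04% after centring. Keap1 had levels of 8.16, 8.24 and 8.13 in ON F2 pools, against 8.39, 8.38 and 8.47 in control pools. Its groups were apart, at -0.24 ± 0.07 (limma adjusted p = 0.155). Nqo1, a quinone reductase, differed by -0.34 ± 0.12 and Nfe2l2 itself by -0.34 ± 0.15. The list median was -0.35, -0.17 and -0.10 in ON F2 pools and 0.17, -0.07 and -0.07 in control pools, so control pool 1 stood high. Another list held 22 genes that CAR and PXR, the drug-sensing receptors, are known to govern or that break down drugs. Of these 14 were lower with a median of -0.16 (14 and -0.10 after centring). Of all genes between 9 and 11, where the median level of the list lies, 67.3% were lower, and 52.3% after centring. Abcc3, an export pump, had levels of 8.30, 9.04 and 9.11 in ON F2 pools and 9.80, 9.68 and 9.02 in control pools, which overlapped, at -0.69 ± 0.22. Cda, cytidine deaminase, which is no member of these lists, was chosen after its values were seen and differed by -0.92 ± 0.19 (limma adjusted p = 0.0819).

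Most Kupffer cell markers stood higher in ON F2 livers, and Jchain and some class II genes lower, with pools that mostly overlapped. Of 18 Kupffer cell markers 15 were higher in ON F2, with a median of 0.18 (17 and 0.20 after centring), 3 of them at an unadjusted p under 0.05. Csf1r, the receptor on which these macrophages depend, had levels of 9.09, 8.83 and 8.88 in ON F2 pools, against 8.20, 8.63 and 8.81 in control pools, at 0.39 ± 0.16. Adgre1 (0.33 ± 0.14) and Vsig4 (0.42 ± 0.19) were the other two. The list median was 0.47, 0.03 and 0.15 in ON F2 pools and -0.21, -0.04 and 0.32 in control pools, so control pool 3 lay among the ON F2 pools, and C1qc and Mpeg1, which macrophages also express, differed by -0.01 ± 0.19 and -0.05 ± 0.29 (0.09 and 0.02 after centring). Jchain, which links the antibodies of plasma cells, had levels of 5.68, 5.09 and 5.46 in ON F2 pools, against 6.26, 7.41 and 6.19 in control pools. The groups were apart, at -1.22 ± 0.32 (limma adjusted p = 0.134), while Ighm overlapped (-0.84 ± 0.50). The 10 markers of B and plasma cells had a median of -0.15 (-0.20 after centring). Of 9 class II antigen presentation genes 6 were lower and 3 higher, with a median of -0.10 (-0.09 after centring). Cd74, H2-Aa and H2-Ab1 differed by -0.43 ± 0.16, -0.45 ± 0.17 and -0.42 ± 0.16, and H2-Ea by 0.29 ± 0.13. H2-Aa had levels of 6.55, 6.73 and 6.76 in ON F2 pools and 6.63, 7.59 and 7.17 in control pools, so control pool 1 lay among the ON F2 pools, and its difference was -0.22 without control pool 2 and -0.70 without control pool 1. Cd74 and H2-Ab1 overlapped at control pool 1 too.

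The cell types named next gave smaller medians than the Kupffer cell markers, given here with the value after centring in brackets. They were 0.02 (0.06) over 14 sinusoidal endothelial markers, -0.04 (-0.01) over 15 stellate cell and fibroblast markers and 0.09 (0.03) over 8 cholangiocyte markers. Over 11 T and NK cell markers the median was 0.04 (-0.01) and over 10 neutrophil markers 0.05 (-0.03). Erythroid, islet, adipocyte, skeletal muscle and mesothelium markers had medians of 0.08 (0.01), 0.07 (0.03), 0.01 (-0.06), 0.0015 (-0.06) and -0.07 (-0.09). The 9 intestine markers, 6 of them of mean level below 5, were not smaller, at 0.19 (0.11), with 7 higher and 2 lower. At an unadjusted p under 0.05, 4 of these were higher and 1 lower, and 1 each way after centring. Of 24 interferon response genes 20 were lower in ON F2 with a median of -0.20 (20 and -0.18 after centring), but 1 had an unadjusted p under 0.05, Stat2, a signal carrier of the interferon receptor, at -0.32 ± 0.10. Of the 2 probe sets of Stat2, 1 pointed the other way. The ON F2 pools stood at -0.08, -0.35 and -0.24 over the interferon list and the control pools at -0.16, -0.08 and 0.26.

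Stress-hormone and acute phase genes separated single pools, not the groups. Mt2, a metal-binding metallothionein that glucocorticoids raise, had levels of 11.81, 7.69 and 6.12 in ON F2 pools, against 10.04, 9.22 and 11.16 in control pools. Pool 13 lay above all control pools and pools 14 and 15 below them. Lcn2, an iron-carrier binding protein of the acute phase, had levels of 12.37, 10.84 and 7.17 in ON F2 pools and 11.80, 11.15 and 12.39 in control pools. Pool 15 was again far below every other pool, and Saa3, a serum amyloid, was at 10.95, 10.50 and 6.86 in ON F2 pools and 12.22, 8.68 and 11.65 in control pools. Over 22 acute phase genes the median was 0.24, -0.02 and -0.35 in the ON F2 pools, against -0.08, -0.09 and 0.25 in control pools. The unfolded protein response and cholesterol synthesis medians were lowest in the same pool 15.

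A few genes bearing on growth and inheritance stood apart without passing the test. Of 22 imprinted genes 14 were higher in ON F2 with a median of 0.12, and of 0.06 after centring. Meg3, a maternally expressed noncoding RNA, had levels of 7.35, 7.43 and 7.73 in ON F2 pools, against 6.57, 6.74 and 6.36 in control pools. Its groups were apart, at 0.95 ± 0.31 (limma adjusted p = 0.19), and Rasgrf1, a paternally expressed exchange factor, differed by 0.30 ± 0.09. Of the 3 probe sets of Rasgrf1, 1 pointed the other way. Igf2, the paternally expressed growth factor that adult mouse liver hardly makes, was at 0.04 ± 0.08 (-0.04 after centring). Among 23 genes of DNA methylation and chromatin 11 were higher and 12 lower. Hells at 0.22 ± 0.09 and Mbd4 at 0.33 ± 0.15 were the only ones at an unadjusted p under 0.05. They are 8.7% of the list, against 15.1% of all genes in either direction, and after centring 1 gene of the list was left. Hells overlapped with control, and Mbd4 was dim, at 4.21 or less in the ON F2 pools. The de novo methyltransferase Dnmt3a had levels of 6.03, 6.33 and 5.80 in ON F2 pools and 6.49, 6.35 and 6.38 in control pools, at -0.35 ± 0.20, just outside the control range. In the methionine cycle, which supplies methyl groups, Mat2b was at 0.28 ± 0.09 and Cbs at -0.23 ± 0.08. Among replication genes the helicase subunits Mcm2, Mcm3 and Mcm5 were at 0.25 ± 0.10, 0.36 ± 0.14 and 0.67 ± 0.25. Pcna, the sliding clamp that serves with them, was at -0.26 ± 0.09. Mcm5 overlapped with control, and 1 of its 3 probe sets pointed the other way. Of 23 measured cell cycle genes 16 were higher and 7 lower, as deposited and after centring.

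Asns, asparagine synthetase and a target of ATF4, had levels of 7.70, 7.48 and 6.98 in ON F2 pools, against 6.44, 6.28 and 6.76 in control pools. It lay above the control range in each ON F2 pool, at 0.89 ± 0.34 (limma adjusted p = 0.239), while over the 20 measured ATF4 response genes 10 were higher and 10 lower. Among genes of insulin action, Irs1, a docking protein of the insulin receptor, was at -0.10 ± 0.08, and G6pc, which releases glucose from the liver, at 0.27 ± 0.16, both with overlapping pools. Igfbp1, an insulin-suppressed binding protein, had levels of 8.12, 9.70 and 7.18 in ON F2 pools and 7.62, 7.00 and 7.41 in control pools. That spread within the ON F2 group was wider than the distance between the groups, at 0.99 ± 0.62. Of the 25 measured genes of the metabolic and epigenetic panel, 2 had an unadjusted p under 0.05, Fgf21 and Pparg, both lower in ON F2, and Fgf21 alone of them did not overlap with control. The regulators Srebf1, which drives fatty acid synthesis, Ppara and Ppargc1a were at 0.01 ± 0.25, 0.04 ± 0.14 and 0.15 ± 0.20. Insr, the insulin receptor, was at -0.01 ± 0.09, Irs2 at 0.13 ± 0.27, Igf1 at -0.10 ± 0.12 and Cpt1a, the gate of fat entry into mitochondria, at -0.05 ± 0.15. The maintenance methyltransferase Dnmt1 was at -0.09 ± 0.10, and the sign of these 8 genes turned under at least 1 other setting or left-out pool.

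Digestive enzymes of the exocrine pancreas were found in 1 ON F2 pool. Pancreas lies beside the liver, and hepatocytes hardly make these enzymes. Cpb1, a carboxypeptidase, had levels of 9.35, 3.65 and 3.75 in ON F2 pools, against 3.63, 3.58 and 3.33 in control pools. Pool 13 alone stood high, and the same held for the list: 20 of 28 acinar genes were more than 1 log2 above the control mean in pool 13 and 0 in pools 14 and 15. The median of the 28 was 2.97 in pool 13, 0.12 in pool 14 and 0.07 in pool 15, against 0.04, -0.01 and -0.04 in control pools. Of the 61 genes that pool 13 held more than 1 log2 above the control mean these 20 were 32.8%. The acinar transcription factor Bhlha15 did not follow, at -0.90 ± 0.26, and Ptf1a, another, was not high in pool 13. Without pool 13, 1 gene passed the test against control, Ces1g, a liver carboxylesterase, at 1.20. Beyond leaving that pool out, the part of these transcripts in the other results was not tested.

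**Figure D4:**
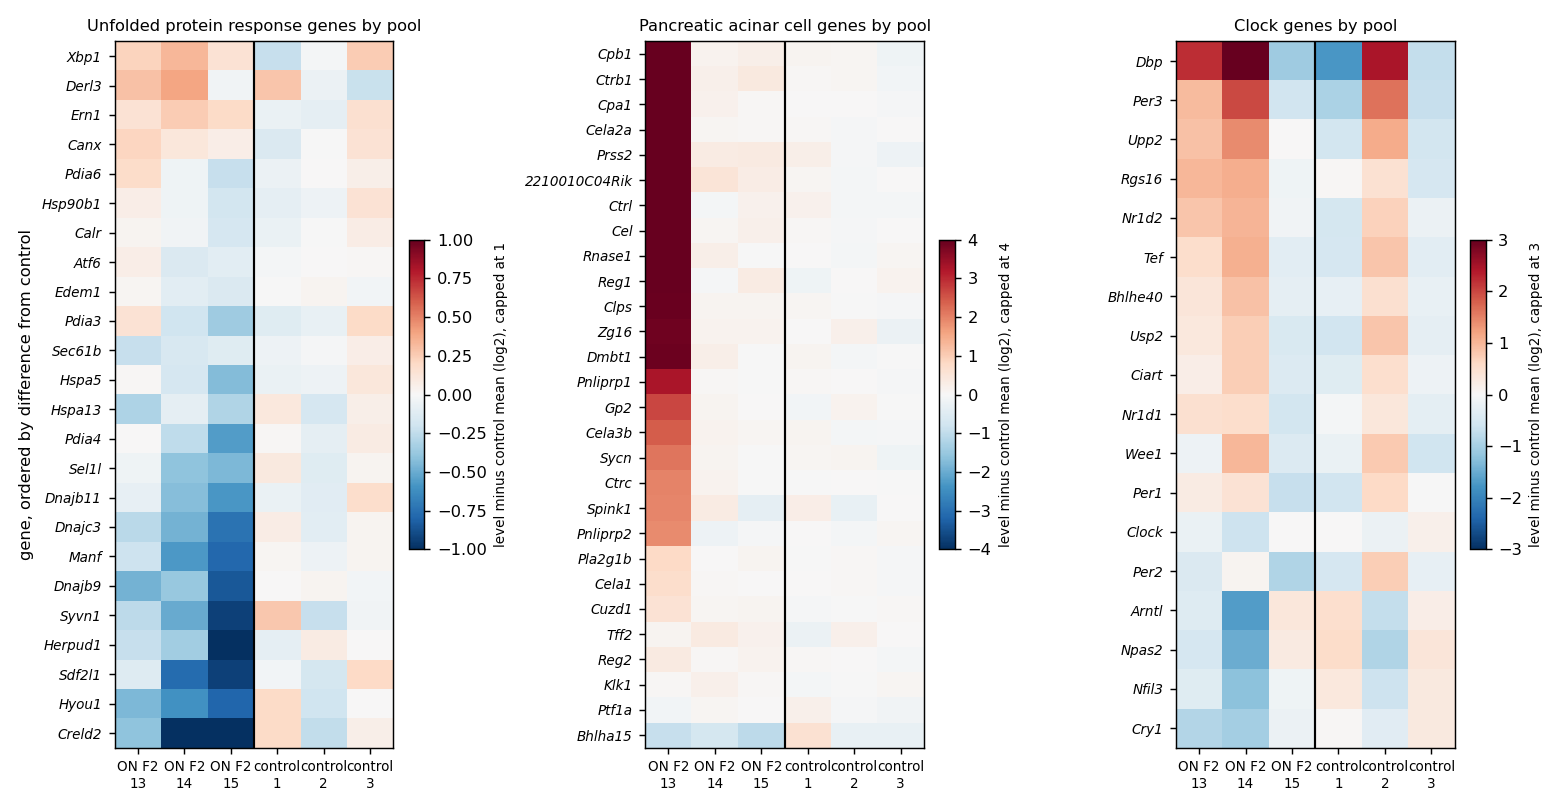
Level minus the control mean (colour, log2, with its own cap in each panel) of the measured unfolded protein response genes (left), pancreatic acinar genes (middle) and 18 clock genes (right), with ON F2 pools left of the line and control pools right of it. The acinar genes are high in ON F2 pool 13 alone, with a median of 2.97, the unfolded protein response genes are lowest in pool 15, and the clock genes of ON F2 pools 13 and 14 and control pool 2 resemble each other.

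Clock genes divided the pools of both groups. In liver, Clock and Bmal1 (Arntl) drive Per, Cry and Nr1d genes through E-boxes and these in turn hold them back, while Dbp and Tef act through D-boxes, so the levels follow the hour of death. Dbp had levels of 9.84, 10.71 and 6.54 in ON F2 pools, against 5.88, 10.07 and 6.89 in control pools. ON F2 pools 13 and 14 and control pool 2 were high, and the remaining pools of both groups low. A score of 6 genes that peak with Dbp minus 4 of the opposite phase was 1.49, 2.92 and -0.38 in ON F2 pools and -0.77, 1.93 and -0.39 in control pools. The 6 were Dbp, Tef, Nr1d1, Nr1d2, Per3 and Ciart, and the 4 were Arntl, Npas2, Clock and Nfil3. Tef was at 9.28, 9.83 and 8.43 in ON F2 pools and 8.24, 9.59 and 8.42 in control pools. Per3 was at 6.42, 7.47 and 4.92 in ON F2 pools and 4.54, 7.12 and 4.79 in control pools. For both, ON F2 pools 13 and 14 and control pool 2 were again the high ones. Cry1, of later phase, had levels of 5.47, 5.35 and 6.18 in ON F2 pools, against 6.40, 6.02 and 6.65 in control pools. It overlapped too, at -0.69 ± 0.30, and was the one of 17 core clock genes at an unadjusted p under 0.05. With the clock score as a covariate, 1 gene passed against control, Steap2 at 1.69.

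The elements through which these genes are known to be driven were searched in the same promoter windows, on both strands. The E-box CACGTG was found in 2349 of 32851 windows (7.15%) and the D-box TTATGTAA in 308 (0.938%). Of 17 core clock genes 14 had a window, of which 4 held the E-box (Bhlhe41, Ciart, Cry1 and Per1) and 1 the D-box (Per3). Of 19 clock output genes 16 had a window, of which 1 held the E-box (Tef) and 0 the D-box. Printed are those of Ciart, with 3 E-boxes, Cry1, Tef and Per3, with 2 D-boxes, since they include the genes whose levels split the pools, with the elements in capitals and each running with its gene.
Ciart, chr3:95882227-95882384, minus strand: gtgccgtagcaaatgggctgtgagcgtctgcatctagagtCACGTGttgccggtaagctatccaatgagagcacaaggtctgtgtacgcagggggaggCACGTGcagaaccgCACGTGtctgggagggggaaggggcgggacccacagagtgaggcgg
Cry1, chr10:85185069-85185154, minus strand: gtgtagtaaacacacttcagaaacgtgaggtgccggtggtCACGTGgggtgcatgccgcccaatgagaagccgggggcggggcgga
Tef, chr15:81802506-81802591, plus strand: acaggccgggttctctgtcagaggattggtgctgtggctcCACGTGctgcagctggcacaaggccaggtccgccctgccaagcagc
Per3, chr4:151044776-151044910, minus strand: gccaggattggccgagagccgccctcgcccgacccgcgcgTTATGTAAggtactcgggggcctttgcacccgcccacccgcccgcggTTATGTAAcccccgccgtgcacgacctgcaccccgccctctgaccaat

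Set against ON F1 livers, the overfed males themselves, ON F2 livers differed in 261 genes, of which 88 (0.484%) were higher and 173 (0.951%) lower. After centring by level 120 were higher and 111 lower, with 190 genes called in both, so the share of calls that were higher moved to 51.9% against 33.7% as deposited. The difference is between sons and exposed males directly, without control levels, while its error comes from the spread within all 5 groups. With only the arrays of the 2 groups 7 genes were called, 6 of them among the 261, and with array weights 101. The clock score was below zero in every ON F1 pool, at -1.71, -1.28 and -0.87, beside 1.49, 2.92 and -0.38 in ON F2 pools, and with that score as a covariate 1 gene stayed called, Clic5. The part of the hour of death in these calls was not tested further. Leaving out single pools gave between 19 calls (without ON F1 pool 7) and 313 (without ON F1 pool 9), with 34 without ON F2 pool 13, 26 without ON F2 pool 14, 212 without ON F2 pool 15 and 152 without ON F1 pool 8.

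Among genes higher in ON F2 than in ON F1, Moxd1 rose most, by 5.17 ± 0.75 (limma adjusted p = 0.00946), with levels of 11.37, 11.65 and 11.46 in ON F2 pools and 4.30, 6.36 and 8.29 in ON F1 pools. Mmd2 was the call of smallest p, with 6.79, 6.35 and 6.71 in ON F2 pools against 5.40, 5.11 and 5.46 in ON F1 pools, at 1.29 ± 0.14 (limma adjusted p = 0.00222). Steap2 rose by 1.32 ± 0.24. Asns had levels of 7.70, 7.48 and 6.98 in ON F2 pools and 5.18, 5.77 and 5.38 in ON F1 pools, a rise of 1.94 ± 0.34. Lpl, lipoprotein lipase, which frees fatty acids from circulating fat, stood at 10.03, 9.63 and 9.96 in ON F2 pools and 8.01, 9.00 and 7.92 in ON F1 pools. It was 1.57 ± 0.24 higher, and Pck1, the entry enzyme of glucose making, was 1.64 ± 0.38 higher. Tff3 (1.80 ± 0.41), Ptgds (1.85 ± 0.40) and Camk2b (1.68 ± 0.27) were the others among the 8 largest, of which Mmd2 was not one.

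Among genes lower in ON F2 than in ON F1, Cyp2b9, a cytochrome that female mouse liver favours, had levels of 5.12, 4.18 and 4.74 in ON F2 pools, against 8.16, 8.34 and 6.66 in ON F1 pools. It fell by 3.04, with a standard error of 0.49 (limma adjusted p = 0.0167), and its drug-inducible relative Cyp2b10 fell by 2.15, with a standard error of 0.45. Of lipid droplet and PPARA genes, Plin2, Plin5 and Vnn1 were called, at -0.57 ± 0.12, -0.64 ± 0.14 and -1.19 ± 0.27. Npas2, a clock factor, fell by 2.19. Adi1, a dioxygenase of methionine salvage, had levels of 8.31, 8.34 and 8.38 in ON F2 pools and 9.17, 9.10 and 9.16 in ON F1 pools, without overlap, at -0.80 ± 0.11. Aqp4 fell by 2.46, Rec114 fell by 2.21, Ntrk2 fell by 1.51, Slc34a2 fell by 1.34 and Cyp2c38 fell by 1.33. Over the interferon response list the median stood at -0.65, with 23 of 24 genes lower and 0 called. That gap rested on ON F1 pool 8: relative to the control mean, the list stood at -0.08, -0.35 and -0.24 in ON F2 pools and at 0.02, 1.05 and -0.04 in ON F1 pools. The unfolded protein response list stood at -0.04, with 15 of 24 lower and 0 called.

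Set against IUGR F2 livers, sons of males underfed before birth, ON F2 livers differed in 1 gene, Mmd2, which was higher (0.0055%), and in 0 lower (0%). At an unadjusted p under 0.05, 867 genes were higher and 977 lower. Mmd2 had levels of 6.79, 6.35 and 6.71 in ON F2 pools, against 5.29, 5.38 and 5.62 in IUGR F2 pools, at 1.19 ± 0.14 (limma adjusted p = 0.00788). Steap2 followed at 1.57 ± 0.24 (limma adjusted p = 0.053), with C1s1, a protease of the classical complement pathway, at 1.01 ± 0.16 and Adi1 at -0.75 ± 0.11 (limma adjusted p = 0.053 each). With its most variable probe set Adi1 was at -2.13 and passed the threshold. Zkscan5 and Wfdc2 were the other higher genes of smallest p, and Dnttip2, Iqcg, Ints2 and Mtif2 the other lower ones. Without ON F2 pool 15 or without IUGR F2 pool 11 no gene was called, and without ON F2 pool 14 there were 7. The clock score of the IUGR F2 pools was -0.81, -0.67 and -0.29.

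**Figure D5:**
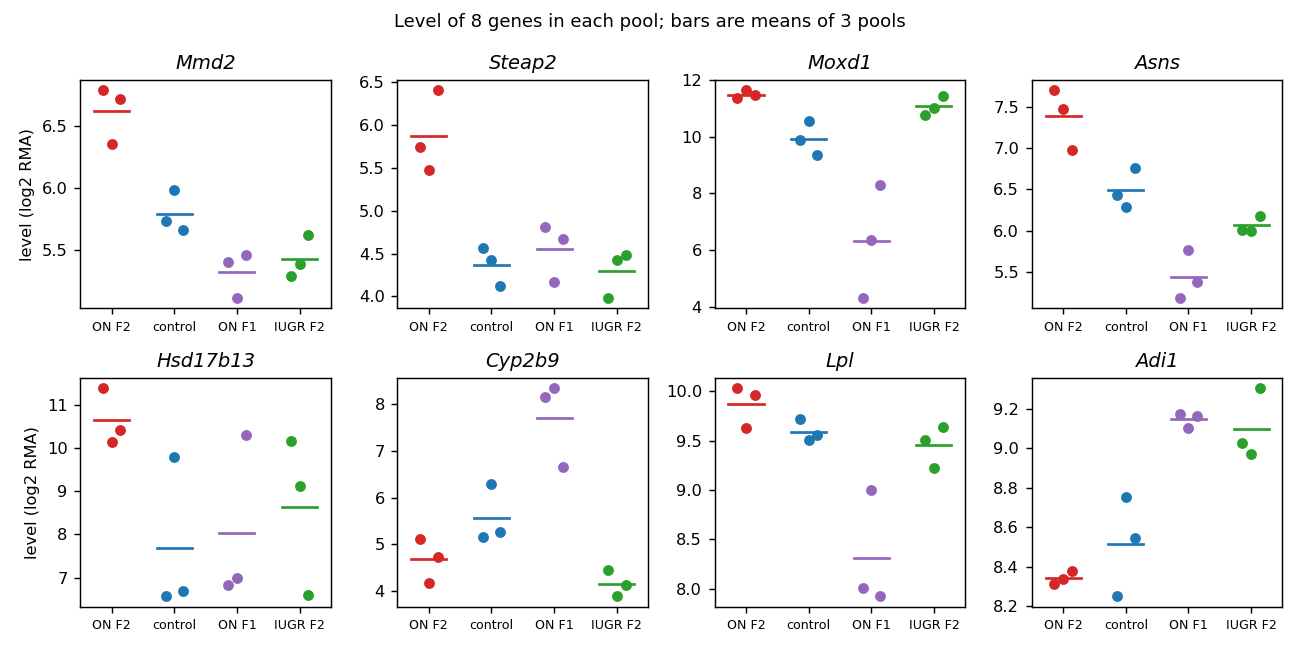
Level (vertical axis, log2) of 8 genes in each pool of ON F2, control, ON F1 and IUGR F2 (horizontal axis), with a point for each pool and a bar at the mean of 3 pools. Mmd2 and Steap2 are highest in the ON F2 pools, Adi1 is at 8.31, 8.34 and 8.38 in ON F2 and at 9.17, 9.10 and 9.16 in ON F1 pools, and Hsd17b13 is high in all ON F2 pools but split within each of the other groups.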

How the data were processed

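Total RNA of pooled mouse livers was extracted with Trizol and labelled with biotin, per the labels' protocols. The authors deposited log2 values per probe set made with RMA, a method that corrects background, equalises the distributions of the arrays and summarises the probes, per the submitters' processing notes. No version of it is recorded in those notes. The deposited table held 45101 probe sets, and 64 control probe sets were left out. By the platform's annotation 34945 of the rest named 1 gene, 932 several and 9160 none, and 34741 were matched to RefSeq by gene identifier. Each of the 18193 genes was read from its probe set of highest mean, and 9010 genes had several.

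Group means over all 15 arrays (5 groups of 3 pools) were fitted with limma 3.58.1 in R 4.3.3, with eBayes and Benjamini-Hochberg adjustment over all genes. A gene was called at an adjusted p under 0.05. The fit had 10 residual and 4.69 prior degrees of freedom and a median standard error of 0.10, and was tested on simulated data. Array medians lay between 4.59 and 4.68, and the number of arrays limits the precision. Nothing in the labels says which pools came from separate litters, so p-values measure only the spread between pools.

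The members and the 48 gene lists, of which 829 of 934 entries were measured, were chosen with earlier results of these data known. The genes to name against control were, in each direction, the 10 of smallest p among those with all 3 ON F2 pools outside the control range. Added were up to 3 members of each list at an unadjusted p under 0.05 and a panel of metabolic and epigenetic genes. Marker genes over 1 log2 from the control mean in any ON F2 pool were named too. The rest were the 8 largest calls in each direction against ON F1, and the 5 of smallest p in each direction against IUGR F2. Other list members, and Hsd17b13, Dio1, Cda, Ces1g, Eif2ak3 and Clic5, were chosen after their values were seen. Alternatives were other arrays, probe sets, filters, variance priors, weights, covariates and left-out pools, all probe sets as units, and, chosen after the data were seen, a cyclic loess centring of each array by level. Promoter sequences are RefSeq's, of GRCm38.p6.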

Additional observations from a re-analysis of the deposited data

Results flagged for a closer look

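The genes below differed between ON F2 and ON F1 livers in the direct contrast of these groups (limma adjusted p under 0.05, 3 pools each, with an error estimated over all 15 arrays), in which control levels cancel. Higher in ON F2 were Asns by 1.94, Camk2b by 1.68, Lpl by 1.57, Mmd2 by 1.29, Moxd1 by 5.17, Pck1 by 1.64, Ptgds by 1.85, Steap2 by 1.32 and Tff3 by 1.80, in log2. Lower in ON F2 were Adi1 at -0.80, Aqp4 at -2.46, Clic5 at -1.31, Cyp2b10 at -2.15, Cyp2b9 at -3.04, Cyp2c38 at -1.33, Npas2 at -2.19, Ntrk2 at -1.51, Plin2 at -0.57, Plin5 at -0.64, Rec114 at -2.21, Slc34a2 at -1.34 and Vnn1 at -1.19. Of these calls Clic5 alone passed with the clock score as a covariate. Between ON F2 and IUGR F2 livers, Mmd2 differed in the same way, at 1.19, higher in all 3 ON F2 pools than in any IUGR F2 pool.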

How the results depend on the processing

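Against control, 0 genes were called as reported and under 13 of 16 alternatives. The exceptions were 1 gene with the most variable probe set (Slc4a4), 1 with the clock score as a covariate (Steap2 at 1.69) and 1 without ON F2 pool 13 (Ces1g), so leaving out single pools gave 0 to 1. Against ON F1, the 261 calls became 7 with only the arrays of the 2 groups, of which 6 were among the 261, 101 with array weights and 1 with the clock score, and leaving out single pools gave 19 to 313. Under the other alternatives there were between 185 (most variable probe set) and 365 (genes with a mean of at least 5). Against IUGR F2, the 1 call became 0 with only the arrays of the 2 groups or with a gene's probe sets averaged, 2 with the most variable probe set, 6 among genes with a mean of at least 5, 4 with an intensity trend, 11 with array weights and 4 with the clock score, and leaving out single pools gave 0 to 7. Fits on the arrays of 2 groups or without a pool use fewer samples and the level filter tests fewer genes, and otherwise the cause was not tested. Every named gene whose sign turned did so in the control comparison, where none was called. With the actin measure as a covariate, the turned values were 0.092 for C1qc, -0.21 for Cyp7a1, 0.072 for Hsp90aa1 and -0.030 for Igf2. With array weights, the turned values were -0.024 for Cyp7a1, 0.021 for Ptf1a, -0.13 for S100a8, -0.11 for S100a9 and -0.0071 for Srebf1. After centring by level, the turned values were -0.029 for Alb, 0.037 for Atf6, 0.086 for C1qc, 0.012 for Cpt1a, -0.037 for Igf2, 0.059 for Insr, 0.017 for Mpeg1, -0.0028 for S100a8 and -0.050 for S100a9. With the clock score as a covariate, the turned values were 0.036 for C1qc, -0.045 for Cyp7a1, -0.20 for Dbp, -0.029 for Igfbp2, -0.061 for Pck1, -0.064 for Per3, -0.0071 for Ppara, -0.035 for Srebf1 and -0.042 for Tef. Dbp, Per3 and Tef are part of that score, so each was adjusted in part by itself. With a gene's probe sets averaged, the turned values were 0.028 for Atf4, 0.18 for Cpt1a, -0.35 for Cyp7a1, -0.017 for Dlk1, 0.082 for Fkbp4, 0.21 for Hspa8 and -0.080 for Ppara. With the most variable probe set, the turned values were 0.28 for Atf4, 0.33 for Cpt1a, -0.72 for Cyp7a1, -0.26 for Dlk1, 0.043 for Dnmt1, 0.34 for Fkbp4, -0.14 for H2-Ea, 1.22 for Hspa8 and -0.061 for Ppara. Leaving out single pools put C1qc between -0.22 and 0.16, Cd163 between -0.13 and 0.83, Cpt1a between -0.13 and 0.068, Cyp7a1 between -0.073 and 0.12, Hsp90aa1 between -0.14 and 0.047, Hsp90b1 between -0.11 and 0.019, Igf1 between -0.20 and 0.0013, Igf2 between -0.013 and 0.097, Igfbp2 between -0.036 and 0.38, Insr between -0.070 and 0.021, Irs2 between -0.14 and 0.31, Mpeg1 between -0.37 and 0.24, Pck1 between -0.090 and 0.62, Ppara between -0.074 and 0.15, Ppargc1a between -0.011 and 0.24, Ptf1a between -0.080 and 0.092, S100a8 between -0.92 and 0.89, S100a9 between -0.70 and 0.62 and Srebf1 between -0.21 and 0.25. Over all alternatives of the control comparison, named genes kept their direction and side of the threshold 2447 times, turned 83 times and passed it 2 times, and list medians moved by less than the spread between ON F2 pools 630 times and by more 89 times. By left-out pool, the medians of several lists moved by over 1.5 times, among them NRF2 targets between -0.30 and -0.088, cholesterol synthesis between -0.33 and -0.065, drug-handling genes between -0.23 and -0.010, imprinted genes between 0.020 and 0.13 and Kupffer cell markers between 0.072 and 0.30. Of the calls named against ON F1, 209 values stayed called and 119 did not. No paired analysis was possible because pool numbers are not shared between groups. Of the 18193 genes 7830 had a mean level of at most 5, where signal is close to background.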

Other observations

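Of the 20 genes of smallest p among those without overlap with control, 5 lie on chromosome 5 (Steap2, Mmd2, Zkscan5, Nfxl1 and Baiap2l1). That chromosome holds 6.23% of the 18142 genes with a position. Mmd2, Baiap2l1 and Zkscan5 lie within 2.66 megabases of each other, at chr5:142563480-145221752 (GRCm38.p6), an interval chosen after their values were seen. Mmd2 and Zkscan5 stood higher in ON F2 livers and Baiap2l1 lower. Of the 48 other measured genes of the interval 19 were higher in ON F2 and 29 lower, with a median difference of -0.04, and 11 (22.9%) had an unadjusted p under 0.05, 4 higher and 7 lower, against 15.1% of all genes in either direction. Among those lower Aimp2, a scaffold of the aminoacyl-tRNA synthetase complex, differed by -0.39 and Actb, cytoplasmic actin, by -0.31.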
